A study of Homo sapiens with 18 samples.

Results

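The genes described here are 7 components of the Hedgehog signalling pathway, GLI1, GLI2, GLI3, PTCH1, HHIP, SMO and SUFU, taken by symbol from the 58336 gene identifiers measured in 3 Ewing sarcoma cell lines. RNA sequencing compared TC-32, TC-71 and A673 cells after depletion of FLI1 by RNA interference (siFLI1) with the same cells under a negative control siRNA (siNeg). Each line had 3 libraries per siRNA, so the 18 libraries formed 6 groups, and both siRNAs were used at 20 nM. All 6 groups are transfected cells of lines that carry a fusion of EWSR1 to FLI1, and siFLI1 reaches the fusion transcript through its FLI1 part. Each siRNA was a single product, and no untransfected cells enter the comparison. A673 was grown in DMEM and the other lines in RPMI medium. The column names give 48 h for TC-32 and TC-71 and no time for A673. Since the labels do not say that replicates were separate cultures, p-values measure the spread between these libraries, which may be technical.

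In Hedgehog signalling, a secreted ligand binds the membrane receptor PTCH1, which otherwise keeps the transmembrane protein SMO inactive. Active SMO works at the primary cilium and frees the GLI transcription factors from SUFU, which binds them in the cytoplasm. GLI2 is known mainly as an activator, GLI3 largely as a repressor, and GLI1 as an activator whose own transcription rises with pathway activity. PTCH1 and HHIP, a membrane protein that captures ligand, are further target genes and damp the signal. In Ewing sarcoma, GLI1 is known as a gene activated by the fusion.

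Total counts per library were 114564479 to 120993595 in A673, 24102487 to 33669271 in TC-32 and 19685354 to 37234528 in TC-71. FLI1, the target of the siRNA, measured 76.1 ± 0.762 CPM under siNeg and 18 ± 0.28 under siFLI1 in A673, against 50.9 ± 2.61 and 18.3 ± 1.43 in TC-71 and 45.2 ± 2.46 and 22.1 ± 0.465 in TC-32 (SD, n = 3). CPM are read counts scaled to library size with TMM factors. The log2 change (siFLI1 over siNeg throughout) was -2.08, -1.47 and -1.03 in that order, with a largest adjusted p of 1.64e-13 by edgeR. Of the Ewing sarcoma markers checked, NKX2-2, NR0B1, STEAP1, CCK and LIPI had mean siNeg levels between 2.37 and 182 CPM and were lower under siFLI1 in every line. CD99 measured 330 ± 5.44 CPM in TC-32 siNeg and 729 ± 22.3 in A673 siNeg, and was also lower under siFLI1 (log2 change -0.16 and -0.67). It was listed at 0 counts in all 6 TC-71 libraries, which were counted with another tool. The part of the tool in these 0 counts was not tested. Markers of blood, epithelial, endothelial and muscle cells were low, with a sum over 7 genes of at most 4.56 CPM in any library. In A673 this sum lay between 0.79 and 1.21 CPM under siNeg and between 2.03 and 2.22 under siFLI1. The TC-32 libraries lay between 3.96 and 4.56 under siNeg and between 2.81 and 3.22 under siFLI1, and the TC-71 libraries between 0.59 and 1.26 and between 0.74 and 1.3. MYOD1 and MYOG had 0 counts in every siNeg library. In TC-32 siNeg, PECAM1 had 2.1 ± 0.311 CPM and KRT5 1.73 ± 0.0726, above GLI1 at 0.845 ± 0.214. Under siFLI1, PECAM1 was called lower and CDH5 higher in both TC-32 and A673. KRT5 was called lower in TC-32 and higher in A673. The part of such cells in the results was not tested.

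The pathway genes did not move as a block when FLI1 was depleted. PTCH1 was the only member called higher in all 3 lines, and 0 members were called lower in all 3. GLI1 was lower in TC-32 and A673, whereas GLI2, GLI3 and SMO rose in TC-32 and TC-71 and were not called in A673, where all 3 were called lower when library size alone set the scale. A gene was called at an edgeR quasi-likelihood adjusted p under 0.05 within its line. In TC-32, 5 of 6 tested members were higher and 1 was lower, where 41.3% and 40.1% of all tested genes were higher and lower. In TC-71, 5 of 7 were higher and 1 lower, against 36.8% and 35% of all genes. In A673, 2 of 7 were higher and 2 lower, against 36% and 35%. Of the 6 members tested in every line, 1 (PTCH1) was called in a common direction in all 3, beside 37.8% of all genes. The siRNA groups did not overlap for 5 members in A673, 7 in TC-71 and 6 in TC-32, against 73.6%, 73.8% and 82.5% of tested genes. In either direction, 6 of 6 members were called in TC-32 (81.3% of all genes), 6 of 7 in TC-71 (71.9%) and 4 of 7 in A673 (71%), so being called does not set the members apart from other genes. The tested members had a median log2 change of 0.53 (TC-32), 0.85 (TC-71) and -0.074 (A673), beside 0.022, 0.018 and -0.0006 over all tested genes. With at least a 2-fold change required as well, 2 members were called in A673, 3 in TC-71 and 3 in TC-32, against 23.1%, 23.4% and 37.6% of all genes.

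**Figure D1:**
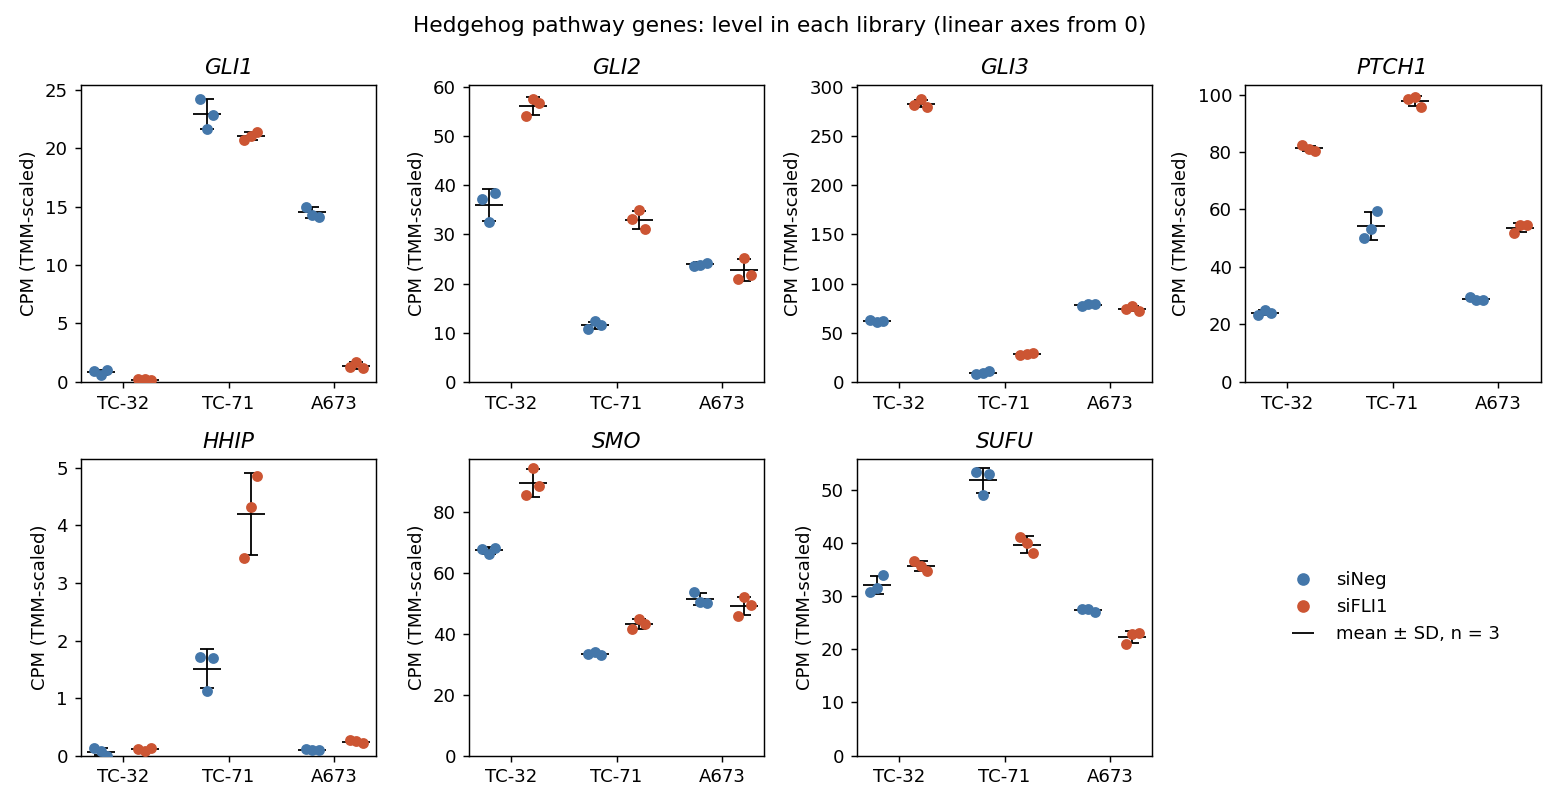
Level of each Hedgehog pathway gene in the 18 libraries, in TMM-scaled CPM on linear axes from 0, with points for libraries and bars for the mean ± SD of 3. GLI1 was lower under siFLI1 in A673 and TC-32, PTCH1 was higher in each line, and GLI3 reached 283 CPM in TC-32 siFLI1.

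GLI1, the zinc finger activator at the end of the pathway, fell about 10-fold in A673 and about 4-fold in TC-32, and was not called in TC-71. GLI1 (ENSG00000111087.9) lies on chromosome 12 from 57459785 to 57472268 on the plus strand (GENCODE release 44, GRCh38), and overlaps the antisense gene ARHGAP9 over 0.11% of its exon length. In A673, GLI1 measured 15, 14.3 and 14.1 CPM in the 3 siNeg libraries and 1.24, 1.74 and 1.2 CPM in the 3 siFLI1 libraries. Every siFLI1 library was thus far below every siNeg library, with a log2 change of -3.38 with an SE of 0.104 (adjusted p = 7.8e-13 by edgeR), a 10.4-fold decrease. This change lay at percentile 1.3 of all genes tested in A673, where percentile 0 is the strongest fall.

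In TC-32, GLI1 was scarce, with 0.921, 0.603 and 1.01 CPM in siNeg (16 to 24 counts) and 0.23, 0.208 and 0.169 CPM in siFLI1 (5 to 7 counts). It passed the low-count filter there only through its siNeg libraries. The groups did not overlap, and the log2 fold change was -2.03 (SE 0.399, adjusted p = 5.05e-05 by edgeR), with a 95% interval from -2.88 to -1.23. In TC-71, where GLI1 was highest, the libraries held 24.2, 21.6 and 22.8 CPM under siNeg and 20.7, 21 and 21.4 CPM under siFLI1. The groups lay side by side without overlapping, but the log2 fold change of -0.12 (SE 0.0717) was not past the threshold (adjusted p = 0.123 by edgeR), and its 95% interval ran from -0.27 to 0.023. A fall of GLI1 as large as that in A673 or TC-32 lies outside this interval. FLI1 itself fell by 1.47 on the log2 scale in the same TC-71 libraries.

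GLI2, known mainly as an activator, rose in TC-32 and TC-71. GLI2 (ENSG00000074047.21, chromosome 2, 120735623 to 120992653, plus strand) has exons free of other genes. In TC-71 it measured 10.7, 12.3 and 11.6 CPM in siNeg and 33.1, 34.9 and 31.1 CPM in siFLI1. All siFLI1 libraries were well above all siNeg libraries, with a log2 change of 1.52 with an SE of 0.0776 (adjusted p = 8.2e-17 by edgeR). In TC-32 the levels were 37.2, 32.5 and 38.5 CPM in siNeg and 54.1, 57.6 and 56.8 CPM in siFLI1, a smaller rise without overlap (log2 change 0.64 with an SE of 0.0636, adjusted p = 1.46e-09 by edgeR). In A673 the groups overlapped, at 23.5, 23.8 and 24.3 CPM in siNeg and 21, 25.2 and 21.8 CPM in siFLI1, and GLI2 was not called (-0.074, adjusted p = 0.294 by edgeR). The siFLI1 replicate 2 of A673 was the highest of these 6 libraries. Without it, GLI2 was called lower in A673, with -0.16 (adjusted p = 0.00819 by edgeR).

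GLI3, known largely as a repressor, had the largest rise among the members. GLI3 (ENSG00000106571.13, chromosome 7, 41960949 to 42264100, minus strand) likewise has exons free of other genes. The TC-32 libraries went from 62.9, 60.5 and 61.8 CPM under siNeg to 282, 288 and 280 CPM in siFLI1. This 4.59-fold increase (log2 change 2.20 with an SE of 0.0448, adjusted p = 2.85e-23 by edgeR) lay at percentile 90.5 of the changes of all genes tested in TC-32. In TC-71, GLI3 started lower, at 8.17, 9.18 and 10.8 CPM in siNeg, and reached 27.8, 28.7 and 29.4 CPM in siFLI1 (log2 change 1.61 with an SE of 0.0874, adjusted p = 3.79e-16 by edgeR). A673 had the highest siNeg levels, at 77.6, 79.2 and 79.3 CPM, and 74, 77.6 and 72.3 CPM in siFLI1. Both groups met at 77.6 CPM without overlapping, and GLI3 was not called there (log2 change -0.077, adjusted p = 0.0913 by edgeR, 95% interval -0.16 to 0.0065), so a rise of the size seen in TC-32 or TC-71 lies outside the interval. Without siFLI1 replicate 2, GLI3 was called lower in A673, with -0.10 (adjusted p = 0.0246 by edgeR).

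The EWSR1::FLI1 protein is known to bind tandem repeats of the bases GGAA, so uninterrupted runs of at least 4 repeats were searched on both strands of hg38 within 100 kb of each gene start. Runs were found for 4 of the 7 members, GLI2, GLI3, PTCH1 and SUFU, and for 54.7% of 20033 protein-coding genes. None was found near GLI1, SMO or HHIP. The longest, of 14 repeats, lies 65.7 kb before the start of GLI3, outside any annotated gene, and 18.6% of protein-coding genes have a run of at least 10 repeats in the same window. GLI3 also has a run of 5 repeats in an intron, 1.9 kb after its start. Both are shown on the strand of GLI3 because this gene had the largest rise, with the uninterrupted run in capitals and 20 bases on each side.
GLI3, chr7:42329825-42329920: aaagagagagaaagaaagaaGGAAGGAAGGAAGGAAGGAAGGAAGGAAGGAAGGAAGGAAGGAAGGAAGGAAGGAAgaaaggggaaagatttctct
GLI3, chr7:42262206-42262265: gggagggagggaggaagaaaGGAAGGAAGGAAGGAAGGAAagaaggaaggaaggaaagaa
A run of letters in the reference describes the genome sequence and is not a measured binding site.

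The 3 GLI genes made up different mixtures in the 3 lines, and the share of GLI1 was lower under siFLI1 in each. In TC-71 this was so although the level of GLI1 itself was not called lower. Levels were compared per kilobase of the Ensembl canonical transcript, as the share of each gene in the summed CPM per kilobase of GLI1, GLI2 and GLI3. In TC-71 siNeg, GLI1 held 67.8% ± 2.87 of the sum (SD, n = 3), GLI2 19.1% ± 1.66 and GLI3 13.2% ± 1.77. In TC-71 siFLI1, the shares were 39.7% ± 0.868, 34.7% ± 1.59 and 25.6% ± 0.758, so that GLI1 stayed the most abundant by a smaller margin. Its own level there was 5.75 CPM per kilobase in siNeg and 5.29 in siFLI1. GLI2 went from 1.62 to 4.63 and GLI3 from 1.12 to 3.41, so the GLI1 share fell mainly because the sum grew. In A673, the GLI1 share was 22.3% ± 0.815 in siNeg and 2.81% ± 0.434 in siFLI1, and GLI3 was the most abundant in both, at 57.3% ± 0.552 and 71.6% ± 1.56. The level of GLI3 itself was not called there, at 9.36 and 8.88 CPM per kilobase. In TC-32, GLI1 held 1.68% ± 0.355 in siNeg and 0.122% ± 0.0188 in siFLI1, while GLI3 held 58.3% ± 2 and 81% ± 0.441. The library ranges of the siRNAs did not overlap for any of these shares in any line.

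The sum itself behaved differently by line. It was 12.6 ± 0.62 CPM per kilobase in siNeg and 41.6 ± 0.625 in siFLI1 in TC-32, 8.49 ± 0.212 and 13.3 ± 0.234 in TC-71, and 16.3 ± 0.0458 and 12.4 ± 0.688 in A673 (SD, n = 3). These shares depend on the gene length used. With all annotated exon bases as the length, the TC-32 siNeg shares of GLI2 and GLI3 were 50% and 48%, so their order turned.

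**Figure D2:**
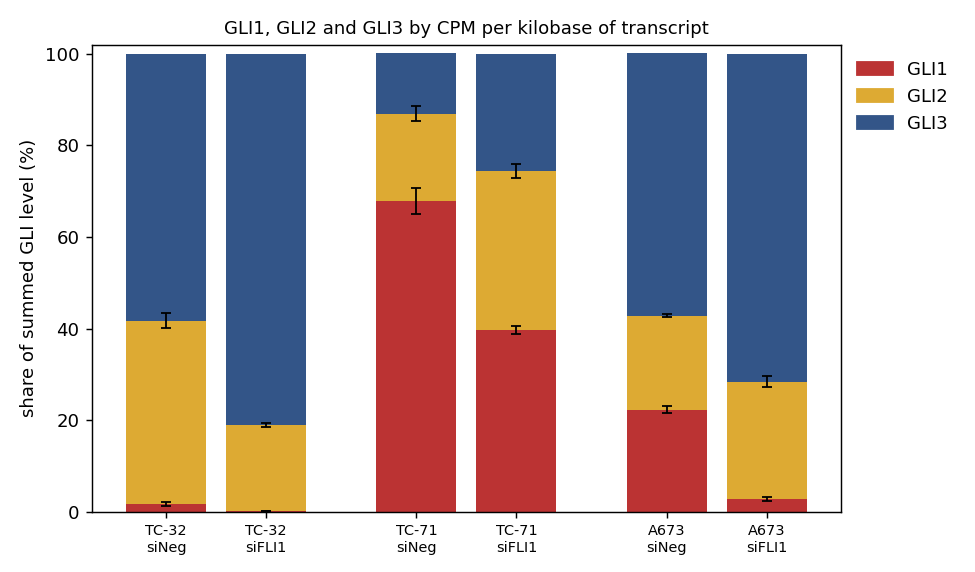
Share of GLI1, GLI2 and GLI3 in their summed CPM per kilobase of canonical transcript, as a percentage for each line and siRNA; bars are means of 3 libraries, and error bars are the SD of the GLI1 and GLI2 shares. The GLI1 share was lower in siFLI1 in each line, at 67.8% against 39.7% in TC-71 and 22.3% against 2.81% in A673. In TC-71 the level of GLI1 itself was not called lower, while GLI2 and GLI3 rose.

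PTCH1, the ligand receptor and a known target of GLI factors, was higher in siFLI1 in every line. PTCH1 (ENSG00000185920.15, chromosome 9, 95442980 to 95517057, minus strand) overlaps an antisense gene, ENSG00000271155, over 4.11% of its exon length. The TC-32 libraries went from 23.3, 24.9 and 24 CPM in siNeg to 82.3, 81.1 and 80.5 CPM in siFLI1, a 3.37-fold change (log2 change 1.75 with an SE of 0.0568, adjusted p = 3.09e-19 by edgeR). The TC-71 libraries went from 50, 53.3 and 59.4 CPM to 98.5, 99.1 and 95.8 CPM (log2 change 0.85 with an SE of 0.056, adjusted p = 3.76e-14 by edgeR). The A673 libraries went from 29.4, 28.4 and 28.4 CPM to 51.9, 54.7 and 54.6 CPM (log2 change 0.90 with an SE of 0.0414, adjusted p = 6.96e-11 by edgeR). The groups were separate in each line, and over all genes tested in the 3 lines, 19% were called higher in all 3. In A673 and TC-32, PTCH1 was thus higher in the same libraries in which GLI1 was lower.

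RefSeq windows from 250 bases before to 50 bases after a transcript start (GRCh38.p14) were on hand for 5 of the 7 members, GLI2, HHIP, SMO, SUFU and PTCH1, in 10 windows of which PTCH1 has 5. They were searched on both strands for GACCACCCA, the consensus of GLI binding sites, and for GGAAGGAA. The GLI letters were found in 1 of the 10 windows and in 83 of 35116 windows of all genes (0.236%). The GGAAGGAA letters were in 0 of the 10, and in 3.67% of all windows. The window with the match belongs to PTCH1 and lies in an intron of its longer transcripts, and its 250 upstream bases are shown because PTCH1 was the member higher in every line. The capitals mark the match, which is the reverse complement of the consensus and begins 172 bases before the start.
PTCH1, chr9:95509267-95509516, minus strand: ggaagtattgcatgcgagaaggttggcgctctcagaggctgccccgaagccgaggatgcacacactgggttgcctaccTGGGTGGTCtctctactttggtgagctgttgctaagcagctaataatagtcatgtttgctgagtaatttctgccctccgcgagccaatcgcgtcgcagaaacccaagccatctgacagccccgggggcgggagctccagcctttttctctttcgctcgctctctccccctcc
The match describes the letters of this window, and binding was not measured.

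HHIP, which captures Hedgehog ligands at the cell surface, was scarce in all libraries and rose where it could be tested. HHIP (ENSG00000164161.9, chromosome 4, 144646156 to 144745271, plus strand) overlaps HHIP-AS1 and ENSG00000273621, both antisense, over 8.32% of its exon length. How the authors' counting used strand is not given in the sources used here. Within the shared bases, reads of HHIP and these antisense genes thus cannot be told apart. The same holds for the antisense overlaps of GLI1, PTCH1 and SMO. It also holds for genes of the further lists, such as NKX2-2 (43.95% of exon length), FOXM1 (15.9%), CDON (14.21%) and CCND1 (10.44%). In TC-71, HHIP measured 1.71, 1.12 and 1.7 CPM in siNeg (22 to 49 counts) and 3.44, 4.32 and 4.85 CPM in siFLI1 (84 to 180 counts). The siFLI1 libraries were all higher, with a log2 change of 1.46 with an SE of 0.184 (adjusted p = 3.63e-08 by edgeR). In A673, 11 to 14 counts in siNeg stood against 25 to 31 in siFLI1, and HHIP rose by 1.21 on the log2 scale (SE 0.3, adjusted p = 0.00222 by edgeR), from 0.105 ± 0.0118 to 0.245 ± 0.0231 CPM (SD, n = 3). In TC-32, HHIP had 0 to 3 counts in siNeg and 3 to 4 in siFLI1, too few to be tested, and a change was not detectable at this depth. HHIP-AS1, its antisense neighbour, rose in TC-71 as well, from 10 to 20 counts in siNeg to 24 to 48 in siFLI1 (log2 change 0.88, adjusted p = 0.00884 by edgeR). In A673, HHIP-AS1 had 10 to 12 counts in siNeg and 0 to 15 in siFLI1, with a log2 change of -0.76 that was not called (adjusted p = 0.352 by edgeR), and in TC-32 it had at most 4 counts and was not tested.

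SMO, the signal transducer, rose modestly in TC-32 and TC-71. SMO (ENSG00000128602.9, chromosome 7, 129188633 to 129213545, plus strand) overlaps the antisense gene ENSG00000243230 over 2.72% of its exon length. In TC-32 it measured 67.8, 66.2 and 68.2 CPM in siNeg and 85.6, 94.4 and 88.4 CPM in siFLI1, a 1.33-fold change (log2 change 0.41 with an SE of 0.0515, adjusted p = 9.23e-08 by edgeR). In TC-71 it measured 33.4, 34 and 33.1 CPM in siNeg and 41.6, 44.8 and 43.1 CPM in siFLI1 (log2 change 0.37 with an SE of 0.0595, adjusted p = 2.77e-06 by edgeR). The groups were separate in both lines. In A673 they overlapped, at 53.7, 50.4 and 50.1 CPM against 45.8, 52 and 49.4 CPM, and SMO was not called (-0.067, adjusted p = 0.246 by edgeR). Without siFLI1 replicate 2, SMO was called lower there, with -0.11 (adjusted p = 0.0489 by edgeR).

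SUFU, the cytoplasmic inhibitor of GLI factors, was called in opposite directions in the lines, the 1 of the 6 members tested in every line for which this was so, beside 22.7% of all genes. SUFU (ENSG00000107882.11, chromosome 10, 102503972 to 102633535, plus strand) has no exon overlap. In TC-71 it fell from 53.4, 49.1 and 52.9 CPM in siNeg to 41.2, 39.9 and 38.1 CPM in siFLI1 (log2 change -0.39 with an SE of 0.058, adjusted p = 7.9e-07 by edgeR). The A673 libraries went from 27.5, 27.6 and 27.1 CPM to 21, 22.8 and 23.1 CPM (log2 change -0.30 with an SE of 0.0473, adjusted p = 5.66e-05 by edgeR). In TC-32 it was slightly higher, at 30.8, 31.6 and 33.9 CPM in siNeg and 36.6, 35.6 and 34.8 CPM in siFLI1 (log2 change 0.15 with an SE of 0.0622, adjusted p = 0.0275 by edgeR). The TC-32 groups lay next to each other without overlap, and the call was lost with DESeq2 (0.15, adjusted p = 0.0965), with no low-count filter (0.13, adjusted p = 0.0866 by edgeR), and without siNeg replicate 1 (0.11, adjusted p = 0.16 by edgeR), siNeg replicate 2 (0.13, adjusted p = 0.107 by edgeR) or siFLI1 replicate 1 (0.12, adjusted p = 0.0872 by edgeR).

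**Figure D3:**
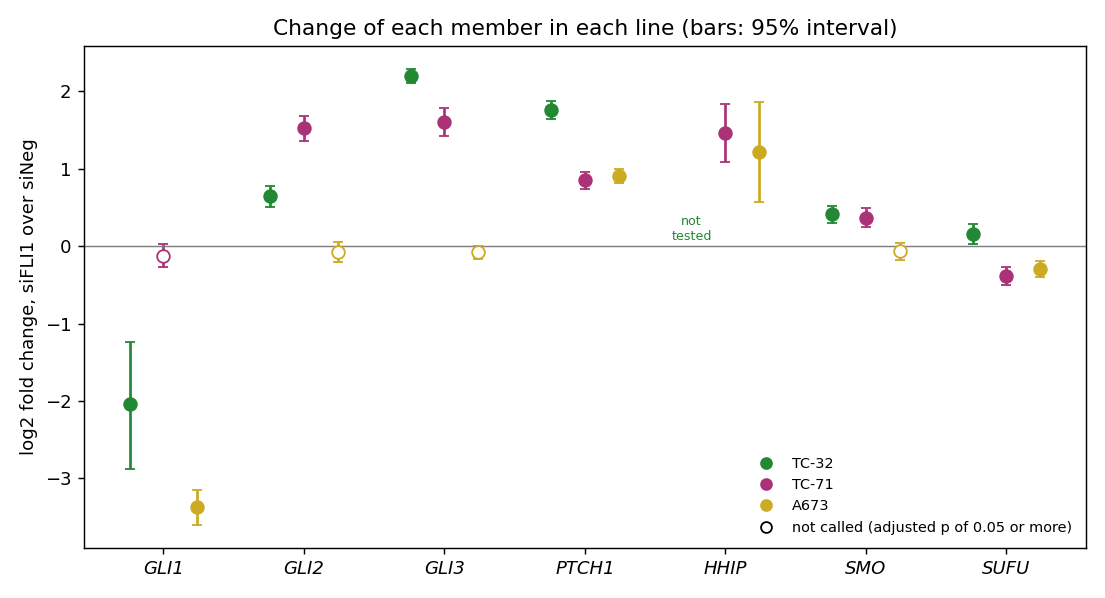
Log2 fold change of siFLI1 over siNeg for each member in each line, with 95% intervals; filled points were called at an adjusted p under 0.05, and HHIP was not tested in TC-32. GLI1 ranges from -3.38 in A673 to -0.12 in TC-71, PTCH1 is above 0 in every line, and GLI2 and GLI3 are near 0 in A673.

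Before depletion, the lines differed in which pathway genes they held. In siNeg, GLI1 was highest in TC-71 (22.9 ± 1.29 CPM, SD, n = 3), followed by A673 (14.5 ± 0.488) and TC-32 (0.845 ± 0.214). GLI3 had another order, with 78.7 ± 0.968 CPM in A673, 61.7 ± 1.23 in TC-32 and 9.39 ± 1.34 in TC-71. GLI2 was highest in TC-32 (36 ± 3.18 CPM), then A673 (23.9 ± 0.424) and TC-71 (11.5 ± 0.77), and SMO was also highest in TC-32 (67.4 ± 1.08) and lowest in TC-71 (33.5 ± 0.456). PTCH1 and SUFU were highest in TC-71, with 54.2 ± 4.78 and 51.8 ± 2.39 CPM. HHIP had 1.51 ± 0.34 CPM in TC-71 and 0.105 ± 0.0118 or less in the other lines, where the libraries of A673 and TC-32 overlapped. For the other 6 members, the siNeg libraries of neighbouring lines in these orders did not overlap. Levels across lines are descriptions, since each table was quantified separately and TC-71 with another counting tool.

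Unequal responses of the lines to siFLI1 were tested by interaction contrasts in one edgeR model of all 18 libraries. Between TC-32 and A673 the response differed for 6 of the 7 members, beside 62.1% of all tested genes, and each of these had the more positive change in TC-32. The largest of these differences was that of GLI3, 2.31 on the log2 scale (SE 0.0684, adjusted p = 9.1e-25 by edgeR), and GLI1 differed by 1.36 (SE 0.448, adjusted p = 0.00891 by edgeR). Between TC-32 and TC-71 it differed for 5 members, beside 53.6% of all genes. GLI1 had the more negative change in TC-32 by 1.93 (SE 0.378, adjusted p = 4.49e-05 by edgeR) and GLI2 the smaller rise by 0.88 (SE 0.105, adjusted p = 6.54e-09 by edgeR). Between A673 and TC-71 it differed for 4 members, beside 51.7% of all genes, with a difference of -3.29 for GLI1 (SE 0.129, adjusted p = 4.41e-21 by edgeR) and -1.72 for GLI3 (SE 0.0846, adjusted p = 2.25e-18 by edgeR).

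Some effects were not shown to differ. The rise of PTCH1 in A673 and TC-71 differed by 0.016, with a 95% interval from -0.13 to 0.16 (adjusted p = 0.908 by edgeR), and that of SMO in TC-32 and TC-71 by 0.036, from -0.12 to 0.19 (adjusted p = 0.747 by edgeR). The fall of SUFU in A673 and TC-71 differed by 0.052, from -0.10 to 0.21 (adjusted p = 0.616 by edgeR). For HHIP, the intervals were wide, from -1.08 to 0.52 between A673 and TC-71 and wider with TC-32. In these contrasts, line and table cannot be told apart, nor, for TC-71, line and counting tool. For A673, the medium, the larger total counts and the missing time label also go with the line. The change of FLI1 itself differed by 1.08 (TC-32 minus A673), 0.43 (TC-32 minus TC-71) and -0.65 (A673 minus TC-71). The part of any of these in the unequal responses was not tested.

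The rest of the pathway was described from 4 lists of genes around the members. Among 9 genes for ligands and their release, 6 of the 7 tested in TC-32 were higher and 1 was lower (median log2 change 2.53). In TC-71, 4 of 5 were higher and 0 lower (2.07), and in A673, 5 of 6 were higher and 0 lower (1.65). Of all tested genes, 41.3% were higher and 40.1% lower in TC-32, 36.8% and 35% in TC-71, and 36% and 35% in A673. Some listed genes passed the low-count filter only through their higher group, and so could enter only as large changes. These include SHH in TC-32 (1 to 3 counts in siFLI1) and SCUBE3 in TC-71 (0 to 3 in siNeg). SCUBE1 and SCUBE2 had 3 to 5 and 2 to 5 counts in TC-32 siNeg. The counts and medians of this list are therefore descriptions. HHAT, the acyltransferase that attaches palmitate to Hedgehog ligands, rose by 2.53 (TC-32), 2.10 (TC-71) and 2.44 (A673) on the log2 scale. SCUBE2 and SCUBE3 encode secreted proteins, and SCUBE2 is known to help release ligand. In TC-32, SCUBE3 had 7 to 16 counts under siNeg and 1076 to 1372 under siFLI1. It also rose in TC-71 (0 to 3 against 36 to 49 counts) and in A673 (25 to 30 against 235 to 271), with a largest adjusted p of 1.58e-09 by edgeR. SCUBE2 rose by 3.96 in TC-32 and 1.41 in TC-71, and had 0.62 in A673 (adjusted p = 0.069 by edgeR).

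Ligand transcripts themselves were scarce. SHH was tested only in TC-32, where it fell from 37 to 60 counts in siNeg to 1 to 3 counts in siFLI1 (adjusted p = 5.1e-10 by edgeR), and it had 0 counts in every TC-71 library and at most 4 in any A673 library. IHH and DHH were too low to be tested in any line, with up to 24 counts of IHH in TC-32 siFLI1 and up to 13 of DHH in TC-71 siNeg.

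Of 6 further receptors and co-receptors, 4 were tested in TC-32, all higher. In TC-71, 4 of 5 were higher and 1 lower, and in A673, 2 of 4 were higher and 2 lower. The medians were 2.75, 0.78 and 0.49. Over all tested genes, the shares higher and lower were 41.3% and 40.1% in TC-32, 36.8% and 35% in TC-71, and 36% and 35% in A673. BOC and CDON, co-receptors that bind ligand beside PTCH1, rose in each line. BOC measured 4.02 ± 0.341 CPM in siNeg and 96 ± 4.62 in siFLI1 in TC-32, 7.11 ± 0.522 and 57.2 ± 0.91 in TC-71, and 0.329 ± 0.00673 and 10.6 ± 0.425 in A673 (SD, n = 3), with log2 changes of 4.58, 3.00 and 5.00 in that order. The changes of CDON were 2.77, 1.64 and 1.37. GAS1, a further co-receptor, rose in TC-32 by 2.73 but was lower in TC-71 (-0.14) and A673 (-0.38).

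Genes of cytoplasmic and ciliary transduction moved little. Of 23, 11 were higher and 7 lower in TC-32, where 41.3% and 40.1% of all tested genes were. Of the 22 tested in TC-71, 11 were higher and 4 lower, beside 36.8% and 35% of all genes. The A673 counts were 11 and 9 of 23, beside 36% and 35%. The medians were 0.073, 0.089 and 0.024, close to those of all genes. EVC, which binds SMO at the cilium base, rose by 1.28 (TC-32), 0.38 (TC-71) and 0.83 (A673). BTRC, part of the ubiquitin ligase that acts on GLI proteins, rose by 0.86, 0.37 and 0.43, and PRKAR1A, a regulatory subunit of protein kinase A, by 0.45, 0.82 and 0.34. ARRB2, a beta-arrestin, fell in each line (-1.53, -1.01 and -0.95), as did GRK2, a kinase that phosphorylates receptors (-0.39, -0.51 and -0.50), and ULK3 (-0.54, -0.19 and -0.23). PRKACA and DYRK2 were called in opposite directions in at least 1 pair of lines.

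Genes known as GLI targets in other settings were split between higher and lower, as were all tested genes. Of 26, 12 were higher and 9 lower among 22 tested in TC-32, beside 41.3% and 40.1% of all genes. TC-71 had 6 and 10 of 21, beside 36.8% and 35%, and A673 had 11 and 7 of 22, beside 36% and 35%. The medians were 0.86, -0.45 and 0.42. Here too, some genes passed the low-count filter only through their higher group, such as FOXC2 in A673 (5 to 10 counts in siNeg) and MYCN in TC-71 (2 to 7 in siFLI1). CCND1, a cyclin of the first cell cycle phase, fell in each line, in the order TC-32, TC-71, A673 (-4.33, -2.39 and -1.76), as did MYCN (-2.95, -2.55 and -2.92) and FOXM1, a transcription factor of dividing cells (-3.06, -1.87 and -1.39). CCND1 is also known as a gene activated by the fusion. SNAI2, a mesenchymal transcription factor, rose by 5.07, 2.96 and 2.65, and IGFBP6, which binds insulin-like growth factors, by 3.51, 1.93 and 1.92. FOXC2 was higher in TC-32 (2.28) and A673 (6.41) and lower in TC-71 (-1.02). CCNE1, JAG2 and SFRP1 were also called in opposite directions in at least 1 pair of lines.

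**Figure D4:**
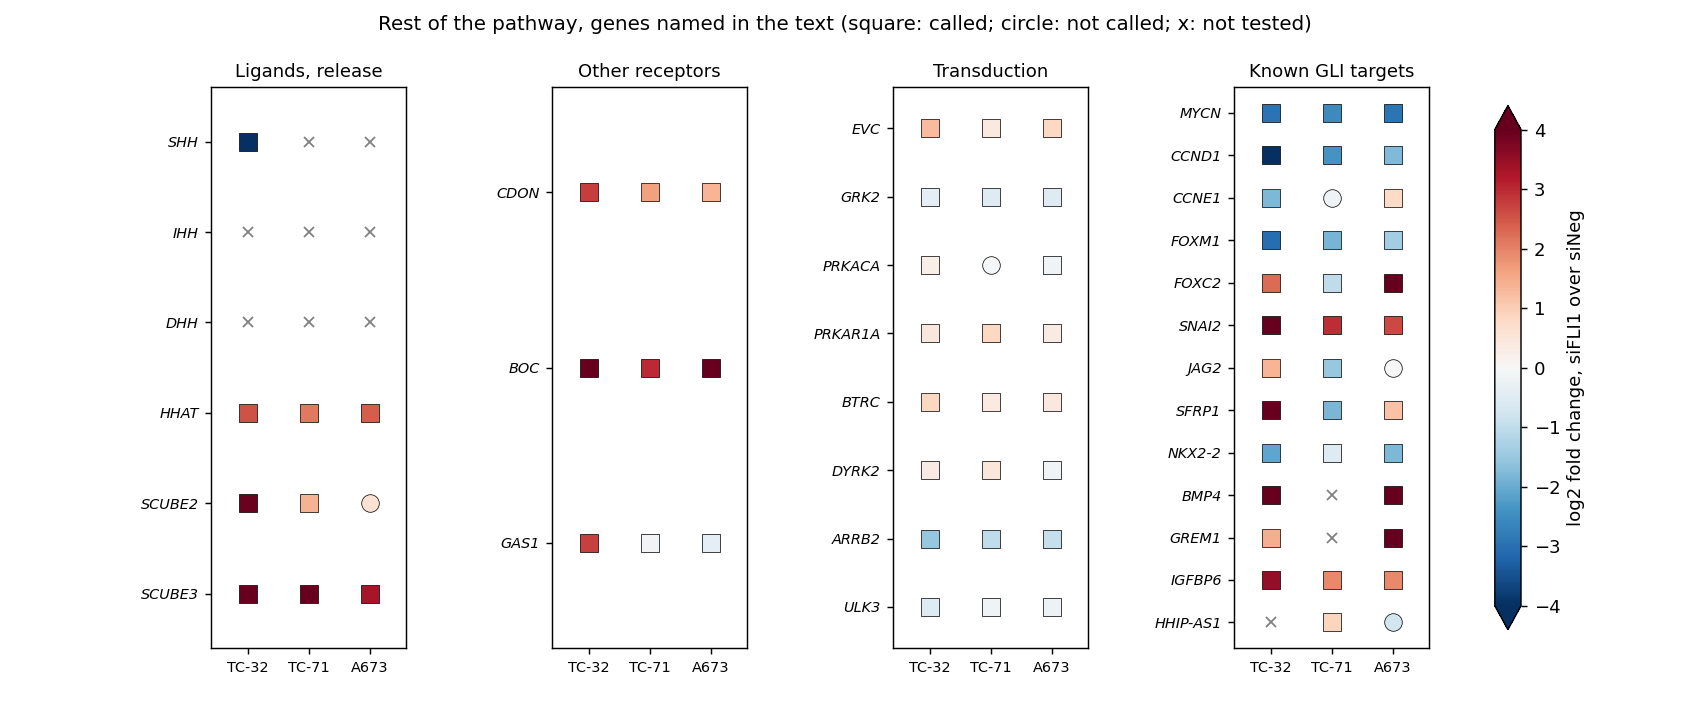
Log2 fold change of siFLI1 over siNeg for the genes of the 4 further lists that the text names, in each line, on a colour scale from -4 to 4 that saturates at its ends; squares were called, circles were not called and crosses were not tested. BOC, CDON, HHAT and SCUBE3 are higher in every line, while the transduction genes are mostly pale, with changes from -1.53 to 1.28.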

How the data were processed

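Per the labels' protocols, a stranded kit was used for messenger RNA. The tables that the authors deposited hold expected counts for A673 and TC-32 (RSEM in their names) and whole counts for TC-71 (Subread in its name). The submitters' processing notes list cutadapt 4.4, STAR 2.7.3, Subread 2.0.3, featureCounts and limma 3.38.3 with GRCh38, without roles. The strand setting and annotation release are not given in the sources used here. Column names give siRNA and replicate, and for TC-32 and TC-71 the line rests on the table name.

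Expected counts were rounded, and pseudoautosomal Y rows were added to their gene. Each line was fitted alone in R 4.3.3 with edgeR 4.0.16 (filterByExpr, TMM, robust quasi-likelihood F-test, Benjamini-Hochberg over all genes tested, threshold 0.05), and the differences between lines in one model of 18 libraries. These fits were tested on simulated data. Log2 fold changes carry the default prior count of 0.125, and SE and 95% intervals are from unshrunken coefficients. CPM use TMM factors, and each SD is over 3 libraries. Total counts, 19685354 to 120993595 per library, set the precision; a count of 0 allows up to 3 counts, for counting error only.

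Positions, exon overlaps and transcript lengths came from GENCODE release 44. SCUBE3, GRK2 and HHIP-AS1 carry older symbols in the tables and were matched by identifier. From the 4 further lists, the text names up to 3 higher and 3 lower genes of largest mean change among genes tested in all lines and called in at least 2 with the same sign, and those called in opposite directions, except for genes that are counted in their list and not reported by name here. The ligands, HHIP-AS1 and comments on single genes outside this rule were added after their values were seen. The members and lists were chosen with earlier results of these data known. Alternatives comprised DESeq2 1.42.0 and limma-voom (limma 3.58.1), scaling by RLE or by library size alone, a filter at a mean of 10 counts or none, unrounded expected counts, the replicate number as a block, each library left out, a 2-fold threshold and, for differences between lines, only 12 libraries. All annotated exon bases as gene length was added after seeing the data.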

Additional observations from a re-analysis of the deposited data

Results flagged for a closer look

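By the interaction test, the response to siFLI1 was unequal between lines for 15 combinations of a member and a pair of lines, given here as the log2 fold change in the first line minus that in the second, from edgeR at an adjusted p under 0.05. Between TC-32 and A673 the differences were 1.36 for GLI1, 0.75 for GLI2, 2.31 for GLI3, 0.88 for PTCH1, 0.51 for SMO and 0.48 for SUFU. Between TC-32 and TC-71 they were -1.93 for GLI1, -0.88 for GLI2, 0.59 for GLI3, 0.90 for PTCH1 and 0.54 for SUFU. Between A673 and TC-71 they were -3.29 for GLI1, -1.63 for GLI2, -1.72 for GLI3 and -0.47 for SMO. These values come from one fit of all libraries, so they deviate slightly from differences between the fits of single lines. Each of the 15 stayed past the threshold of adjusted p with the same sign under the alternatives run for it. The highest edgeR adjusted p, 0.0409, was that of GLI1 between TC-32 and A673 without TC-32 siFLI1 replicate 1. The 2-fold threshold was not among these alternatives. All differences of PTCH1, SMO and SUFU were under 2-fold, as were those of GLI2 in both pairs with TC-32 and of GLI3 between TC-32 and TC-71.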

How the results depend on the processing

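Of 881 recomputed changes of the members and FLI1, 860 kept their sign and their side of the threshold, 5 lost the call (all SUFU in TC-32), 6 gained it (GLI2, GLI3 and SMO in A673) and 10 changed sign, all among differences between lines that were not called. The 2-fold threshold is not part of these 881. With library size alone, A673 had 7 members called (2 higher, 5 lower), with -0.18 for GLI2, -0.19 for GLI3 and -0.18 for SMO, while the median over all genes tested in that line became -0.11 (-0.00056 with TMM) and 40.9% of calls were higher (50.7% with TMM). Leaving out single libraries gave 4 to 7 called members in A673, with 7 only without siFLI1 replicate 2. Requiring a 2-fold change left 2 of 7 members in A673, 3 of 7 in TC-71 and 3 of 6 in TC-32. Of the receptors it left 2 of 4 in A673 and 2 of 5 in TC-71. It left 0 of 23 transduction genes in A673, 1 of 22 in TC-71 and 4 of 23 in TC-32, and 10 of 21 GLI target genes in TC-71. Of all tested genes, it left 23.1% in A673, 23.4% in TC-71 and 37.6% in TC-32. The remaining lists and lines, whose counts moved less in proportion, are not given here. The PTCH1 difference between A673 and TC-71 ranged from -0.071 to 0.061 over single libraries left out, and was -0.0425 with library size alone. That of SMO between TC-32 and TC-71 ranged from -0.0037 to 0.060, that of HHIP between TC-32 and A673 from -1.0 to 0.28 (0.28 without TC-32 siNeg replicate 1), and SUFU between A673 and TC-71 was -0.0071 with library size alone. For these results the cause was not tested. Deviations of same-numbered libraries from their group means had correlations from -0.067 to 0.063, so the numbers were not taken as pairs. With the replicate block, 4 members were called in A673, 6 in TC-71 and 6 in TC-32, GLI1 had -3.38, -0.12 and -2.01 in that order, and no member's call changed. Depth limits GLI1 in TC-32 (5 to 24 counts) and HHIP in TC-32 (0 to 4) and A673 (11 to 31).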

Other observations

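For each member tested in all lines, which leaves out HHIP, the 3 most similar genes were found among 12243 genes compared. They were those with the highest Pearson correlation of log2 CPM over the 18 libraries, after centring each line on its mean. The 18 points share 6 group means, so these values are descriptions. TC-71 was counted with another tool, and the part of this in the correlations was not tested. GLI1 was most like PLCXD1 (0.99), MEX3A and ALX1, GLI2 was most like POLD4 (0.99), ADGRA2 and SOX4, and GLI3 was most like CLU (1.00), KHNYN and LFNG. PTCH1 was most like DAB2 (1.00), C1orf198 and CCNL2, SMO was most like DCHS1 (0.98), ERGIC3 and TRO, and SUFU was most like TMEM98 (0.97), FCGRT and ACVR1B. On levels that keep the differences between lines, the first gene was GMPR2 for GLI1 (0.98), UBA7 for GLI2 (0.98), GTF2IRD2 for GLI3 (0.99), SGPL1 for PTCH1 (0.99), SLC35E2B for SMO (0.99) and ACACB for SUFU (0.97). SNAI2, one of the genes known as GLI targets, was the second for PTCH1 (0.98).

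Among the members themselves, the centred levels of GLI3 correlated with those of SMO (0.96), PTCH1 (0.88) and GLI2 (0.86) over the 18 libraries. GLI1 correlated negatively with PTCH1 (-0.76) and HHIP (-0.53). In TC-32, HHIP had 0 to 3 counts in siNeg and 3 to 4 in siFLI1, and GLI1 had 16 to 24 and 5 to 7. The values of that line are thus imprecise for this pair. These correlations too are descriptions, since the libraries share group means.

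BMP4 and GREM1 are further genes known as GLI targets. BMP4, a secreted growth factor, had 0 to 2 counts in TC-32 siNeg and 34 to 53 in siFLI1, and 5 to 7 against 92 to 118 in A673, while TC-71 had 0 counts in each siNeg library and 1 to 6 in siFLI1, too few to be tested. GREM1, which binds BMP ligands, rose from 40.1 ± 2.71 to 111 ± 3.82 CPM in TC-32 and from 0.628 ± 0.0589 to 10.8 ± 0.777 in A673 (SD, n = 3), with edgeR adjusted p of 9.28e-18 and 4.99e-14, and had at most 4 counts in TC-71, where it was not tested. In TC-32 and A673, BMP4 passed the low-count filter only through its siFLI1 libraries. Both genes were chosen after their values were seen.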
